A study of Musca domestica with 24 samples.

Results

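Abdomens of the house fly Musca domestica that carry the code SR, from animals treated with double-stranded RNA against Md-tra, were compared with abdomens of female flies treated with double-stranded RNA against GFP. The comparison uses 6 of the 24 libraries of the series, 3 SR and 3 GFP female, each made from the abdomen of 1 fly. Of 16540 genes in the abdomen table, 12537 had at least 10 normalized counts in 3 or more of the 12 abdomen libraries and were tested. SR abdomens differed from GFP female abdomens at 9585 of these genes (76.5%), with 5474 higher (43.7%) and 4111 lower (32.8%). Sex-lethal, armadillo and bicoid were lower in SR. All 6 cytochrome P450 genes and all 4 immune effector genes tested under a symbol of their own were higher. Relatives known by identifier alone were not surveyed. Among the immune effectors, the calls of attacin and defensin-1 were lost under several alternative settings.

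All flies were of the strain IIIM (3-6), in which the male determiner lies on the third chromosome. The SR group is described in 2 ways: its sample titles call the flies genotypic males given Md-tra RNAi, whereas the headers of the authors' deposited comparisons use the SR columns as sex-reversed males, that is, genotypic females turned into males. The labels give male as the phenotypic sex of SR flies. Code N marks the other Md-tra RNAi group, also phenotypic males, which the titles call sex-reversed males. The headers set the sex-reversed males against Md-tra RNAi normal males, a name that would then fall to N. Whether those comparisons were made from the N columns was not checked. GFP males are genotypic males with control RNAi, and GFP females are genotypic females with control RNAi. N and GFP male abdomens, 3 flies each, serve below as context. Under the titles the contrast of SR with GFP females joins a difference in genotypic sex to the RNAi, and under the headers it is the RNAi alone. The data used here do not decide between these readings, and the group is called SR. The level of Md-tra was not analysed here, so the knockdown was not checked at its target.

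Md-tra is the house fly relative of transformer, a splicing factor gene at the centre of insect sex determination. Female-type Md-tra protein keeps its own transcripts and those of downstream regulators in the female splice form, and the male determiner of this species interrupts that loop. Loss of Md-tra activity early in life turns genetic females into males, and GFP, which flies lack, serves as the control target. An adult female abdomen is filled largely by the ovaries, and a male abdomen holds testes and accessory glands, beside the gut, fat body, muscle and nerves that both sexes have.

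Recovered reads per library were 29645557, 41657177 and 24100066 in SR replicates 1 to 3, against 77407229, 68362465 and 56719614 in GFP females. Every SR library was thus shallower than every GFP female library, and the part of depth in the results was not tested. A single read was worth 0.604 to 1.06 normalized counts in SR and 0.206 to 0.284 in GFP females, so a value below 1 rests on at most 1 read in SR and on a few reads in GFP females. Lists of eggshell, testis and sperm, seminal fluid, muscle and digestive genes had no matched member, since the files give most genes by identifier alone. Egg and yolk could be looked at only through bcd and yp3. Bcd had reads in the GFP females and in no SR fly, while yp3 was called higher in SR with overlapping groups. Symbols looked for as fat body (attacin, diptericin, lysozyme) and nerve (IR25a, para-like) genes were also tested, but both sexes have these tissues. In whole abdomens, fewer cells of a type and less RNA per cell cannot be told apart.

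A gene is called here when its Benjamini-Hochberg adjusted p in limma, a linear model fitted across all genes, was under 0.05. The values of the 3 SR and the 3 GFP female flies did not overlap at 82.1% of tested genes. A called gene with no overlap is therefore the usual case in this contrast, and counts of members below are read against these shares. At least 2-fold changes on the log2(normalized count + 1) scale numbered 5157 higher and 3413 lower, and changes of at least 16-fold numbered 2867 higher and 461 lower. The directions thus differed in size more than in number. At 256-fold or more the counts were 271 and 42, and at 1024-fold or more 70 and 15. The median log2 difference of all tested genes was 0.68. Setting that median to 0 brought the higher share of called genes to 46.3%, against 57.1% as deposited. Scaling by TMM from recovered reads gave 49.4% and edgeR 50.7%, so which direction holds more genes depends on the scaling.

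**Figure D1:**
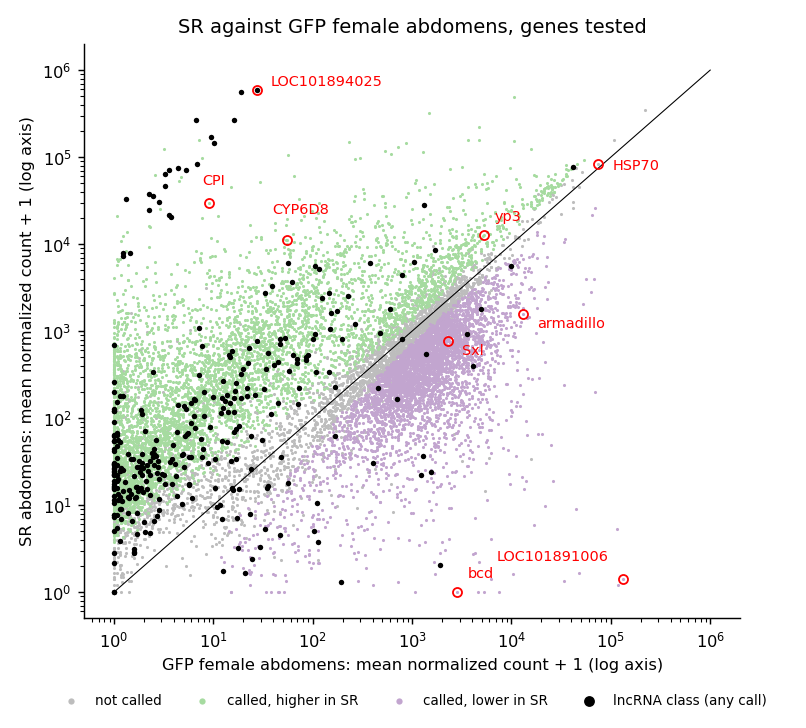
Mean normalized count + 1 of the 3 SR abdomens (y axis) against that of the 3 GFP female abdomens (x axis), both on log axes, with 1 point per gene for the 12537 genes tested. Green points were called higher and purple points lower in SR, black points are the lncRNA class, red rings mark genes described in the text, and the line marks equal means. LOC101894025, at a mean of 593228 in SR and 26.2 in GFP females, lies in a group of genes at the upper left, and bcd lies at the lower edge.

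Of 53 genes with a symbol of their own, 48 were tested, and 31 were higher, 11 lower and 6 not called, with a median log2 difference of 3.96 against 0.68 for all genes. In SR, 41 of the 48 had values that did not overlap with GFP females. The gene lists below hold only genes with a symbol, so relatives known by identifier alone are not counted in them. Folds below are ratios of mean normalized counts, and the log2 differences are on the log2(normalized count + 1) scale with their standard errors from limma.

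Sxl, the relative of the Drosophila sex switch Sex-lethal, which does not hold that role in the house fly, was lower in SR. Its normalized counts were 684, 819.8 and 824 in SR, against 2015, 2169 and 2628 in GFP females. The highest SR fly lay well below the lowest GFP female fly. The log2 difference was -1.54 ± 0.18 (limma, Benjamini-Hochberg adjusted p = 2.42e-05), a mean 2.93-fold lower. GFP males averaged 662 and N 637.

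Among symbols the deepest fall was that of bcd. Bcd, whose transcript the mother deposits in the egg to set the anterior end, had no read in any SR fly and 2969, 2225 and 3315 normalized counts in GFP females. Against a floor of 3 reads per library the SR mean was at least 1117-fold lower. Its fitted log2 difference of -11.45 depends on the pseudocount, with a limma Benjamini-Hochberg adjusted p = 5.61e-07. No other symbol was without a read in all 3 SR flies while present in all 3 females.

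Armadillo, the beta-catenin of Wnt signalling and cell adhesion, had 1414, 2046 and 1304 normalized counts in SR, against 12946, 12340.4 and 13899.5 in GFP females. The groups lay far apart relative to the spread within either. The log2 difference was -3.07 ± 0.19 (limma, Benjamini-Hochberg adjusted p = 5.84e-07), 8.23-fold lower in SR. Argos, in Drosophila a secreted inhibitor of the epidermal growth factor receptor, went the other way. It had 118, 157 and 155 in SR, against 24.97, 12.01 and 4.27 in GFP females, a log2 difference of 3.56 ± 0.57 (limma, Benjamini-Hochberg adjusted p = 2.12e-04).

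Yp3, a yolk protein gene, differed widely between flies of the same group. SR abdomens held 6253, 24021 and 7747 normalized counts and GFP female abdomens 15574, 21.1 and 254. GFP female replicate 1 lay above SR replicates 1 and 3, so the groups overlapped, and all 3 SR flies lay above the other 2 females. The log2 difference was 4.57 ± 1.86 (limma, Benjamini-Hochberg adjusted p = 0.0439), 7.13 without GFP female replicate 1 and 2.40 without replicate 2. The ratio of the group means was far smaller, 2.40-fold, and the log2 difference was 0.78 in edgeR and 1.27 in DESeq2. The call ended without any 1 of the SR flies or of GFP female replicates 2 and 3, as well as with TMM scaling, with the median set to 0, in edgeR and in DESeq2. GFP males averaged 975 and N 1539.6.

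The nuclear receptor gene HR96, whose Drosophila relative responds to foreign chemicals and lipids, was lower in SR. It had 209, 293 and 176 normalized counts in SR, against 1229, 1139 and 1196 in GFP females, with no overlap and a log2 difference of -2.42 ± 0.30 (limma, Benjamini-Hochberg adjusted p = 3.78e-05). Sgf11, in Drosophila a subunit of the SAGA histone-modifying complex, stood at 94.1, 103 and 86.2 in SR and 459.6, 413 and 454 in GFP females, 4.68-fold lower. Caspase-1, a protease of the cell death pathway, stood at 616, 494 and 369 in SR and 1424, 1652 and 1752 in GFP females, 3.26-fold lower. Each of these genes was lower in all 3 SR flies than in any GFP female.

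Cytochrome P450 enzymes oxidise lipophilic compounds, insecticides among them, and house fly CYP6 genes are known from resistant strains. All 6 CYP genes with a symbol were higher in SR, with no overlap for any of them. Their median log2 difference was 5.77, with a range of 5.47 to 8.85. CYP6D8 had 14427, 10246 and 9122 normalized counts in SR, against 144, 7.92 and 9.67 in GFP females. The mean was 209.6-fold higher (log2 difference 8.85 ± 0.90, limma, Benjamini-Hochberg adjusted p = 1.06e-05). GFP female replicate 1 stood above the other females at this gene and far below every SR fly, and without it the fold was 1281.

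CYP6D3 had 10838, 12155 and 13987 normalized counts in SR, against 770.5, 109 and 72.2 in GFP females. CYP12A2, of a mitochondrial P450 family, had 716, 1667 and 876 in SR, against 48.5, 14.9 and 5.97 in GFP females. CYP6A24 had 5415, 15406 and 1967 in SR, against 442, 99.9 and 40.9 in GFP females. In each of these genes GFP female replicate 1 was the highest of the females. CYP6G4 had 1935, 1460.3 and 279.9 in SR, against 55.9, 12.5 and 10.2 in GFP females. CYP12A1 had 159, 248 and 80.9 in SR, against 6.60, 2.16 and 0 in GFP females. SR replicate 3 was the lowest SR fly for CYP6A24, CYP6G4 and CYP12A1. The folds of these 5 genes lay between 38.8 and 55.7, or between 104 and 150.5 without GFP female replicate 1, with limma Benjamini-Hochberg adjusted p-values of 9.33e-06 to 0.00303. Without SR replicate 2 the fold of CYP6A24 was 19.0.

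Of the genes grouped with the P450s as electron partners, CPR, the reductase that feeds electrons to P450 enzymes, rose by a smaller fold than any of the CYP genes. CPR had 15935, 14684 and 11972 normalized counts in SR, against 7434, 7726 and 7697 in GFP females, 1.86-fold higher with no overlap. Its log2 difference was 0.89 ± 0.26 (limma, Benjamini-Hochberg adjusted p = 0.00877), and the call ended with the median set to 0, with TMM scaling from recovered reads and in edgeR. N, whose CPR mean was 3399, lay below GFP females. CYB1 had 877, 243 and 546 in SR, against 45.2, 39.1 and 14.5 in GFP females, and CYB2 had 69.7, 30.8 and 9.58 in SR, against 9.08, 1.20 and 1.99 in GFP females. Both were called, CYB1 16.9-fold and CYB2 8.97-fold higher in SR. The fold of CYB2 was 23.0 without GFP female replicate 1 and 4.93 without SR replicate 1.

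Enzymes of conjugation, ester cleavage and superoxide removal were higher at 6 of 6 genes, with a median log2 difference of 3.10. Glutathione S-transferases couple glutathione to reactive compounds. GST-6A had 6153, 5219 and 9015 normalized counts in SR, against 269, 66.5 and 88.1 in GFP females, 48.1-fold higher (limma, Benjamini-Hochberg adjusted p = 9.75e-06). Without GFP female replicate 1 the fold was 87.9. GST had 4041, 2158 and 4529 in SR, against 370.3, 21.9 and 21.3 in GFP females. The carboxylesterase gene MdaE7 had 6112, 1242 and 2439 in SR, against 454, 81.2 and 54.02 in GFP females. The lowest SR fly exceeded the highest female for each of these genes.

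The superoxide dismutase genes showed smaller differences. SOD had 1249, 2962 and 2132 normalized counts in SR, against 811, 331 and 651 in GFP females. SOD1 had 614, 606 and 841 in SR, against 260.3, 362 and 270.1 in GFP females. SOD2 had 5392, 4698 and 6267 in SR, against 3267, 3432 and 3281 in GFP females. No SR fly overlapped with the females at any of them. The log2 difference was 1.83 for SOD, 1.20 for SOD1 and 0.70 for SOD2, and the limma Benjamini-Hochberg adjusted p was 0.0169 for SOD, 0.00385 for SOD1 and 0.0206 for SOD2. All 3 calls ended with the median set to 0, with TMM scaling from recovered reads and in edgeR, and SOD2 then stood at -0.0074 with the median set to 0. The SOD call also ended without SR replicate 2 or GFP female replicate 2, and the SOD2 call with TMM scaling and without SR replicate 3 or GFP female replicate 3.

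Immune effectors, antimicrobial peptides and lysozyme that the fat body and gut release on infection, were higher at 4 of 4 genes, with a median log2 difference of 4.69. They also differed widely between flies. Lysozyme, which cleaves bacterial cell walls, had 3734, 3801 and 147 normalized counts in SR, against 19.2, 29.3 and 20.8 in GFP females. SR replicate 3 was far below the other SR flies and still above every female (log2 difference 5.76 ± 1.45, limma, Benjamini-Hochberg adjusted p = 0.00412).

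Diptericin had 210, 163 and 259 normalized counts in SR, against 15.1, 20.7 and 1.14 in GFP females, with even values among SR flies. Attacin had 9.59, 264 and 1613 in SR, against 7.22, 6.48 and 1.99 in GFP females, and here SR replicate 1 lay just above the females. Defensin-1 had 311, 2465 and 5909 in SR, against 636, 102 and 15.6 in GFP females. Its groups overlapped, since GFP female replicate 1 exceeded SR replicate 1. The limma Benjamini-Hochberg adjusted p was 0.00745 for diptericin, 0.0362 for attacin and 0.0215 for defensin-1. Attacin lost its call with the median set to 0, without SR replicate 2 or 3 or without any 1 of the females, and defensin-1 in edgeR and without SR replicate 2 or 3 or GFP female replicate 2 or 3. GFP male abdomens had 6993, 99.7 and 378 normalized counts of attacin, a mean of 2490.2, and of 239 without GFP male replicate 1, against an SR mean of 629. The GFP male mean was 1013 for diptericin, 278 without replicate 1, against an SR mean of 211, and 14476 for defensin-1, 5480 without replicate 1, against 2895 in SR. For lysozyme the GFP male mean was 2096, below the SR mean of 2560.4.

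Serpins, which block serine proteases, moved in both directions. SPN9 had 1149, 1642 and 1672 normalized counts in SR, against 41.7, 5.28 and 1.71 in GFP females, 91.7-fold higher (limma, Benjamini-Hochberg adjusted p = 1.47e-05). Without GFP female replicate 1 the fold was 426. SPN15 had 1144, 1186 and 1141 in SR, against 1946, 2836 and 2043 in GFP females, 1.97-fold lower (limma, Benjamini-Hochberg adjusted p = 0.00354). The 3 SR flies were nearly equal at SPN15 and all lay below the females. Spn2 had 15.7, 14.5 and 23.4 in SR and 3 reads in 1 GFP female and no read in the other 2. Those 3 reads over the pooled depth of the GFP females give a ratio of the SR level to theirs of 74.6, with a counting interval of 25.5 to 362. SPN13 had 2.61, 13.9 and 10.6 in SR, against 18.2, 0 and 0.569 in GFP females, and was not called (limma, Benjamini-Hochberg adjusted p = 0.286).

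The list of neural receptors and channels was higher at 3 of 3 genes, with a median log2 difference of 5.25. It leaves out pdf, given below, and MdRdl and Gr2, which did not pass the filter. Para-like, named for the voltage-gated sodium channel of Drosophila, had 16336, 12955 and 12164 normalized counts in SR, against 446, 24.7 and 34.4 in GFP females. Its mean was 82.0-fold higher (log2 difference 7.53 ± 0.86, limma, Benjamini-Hochberg adjusted p = 2.19e-05). Without GFP female replicate 1 it was 467-fold. IR25a, a co-receptor of the ionotropic odorant receptors, had 95.9, 47.1 and 83.01 in SR and 1.65, 0.720 and 0.569 in GFP females. Receptor subunit nAChRbeta3, of the nicotinic acetylcholine receptor, had 337, 109 and 311 in SR, against 19.4, 3.36 and 8.25 in GFP females. No female reached any SR fly at these genes. The neuropeptide gene pdf had 57.5, 118 and 0 in SR and 0.206, 0 and 0.569 in GFP females, and was not called (limma, Benjamini-Hochberg adjusted p = 0.0757). Without SR replicate 3, the SR fly at 0, its limma Benjamini-Hochberg adjusted p was 0.00605, and edgeR and DESeq2 called it higher.

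Subunits of the chaperonin CCT, which folds actin and tubulin, were lower at 3 of 3 genes, with a median log2 difference of -0.84. CCT-eta had 3303, 3594 and 3948 normalized counts in SR, against 5893, 6515 and 6351 in GFP females. CCT-zeta had 5666, 5018 and 7386 in SR, against 10006, 11903 and 10108 in GFP females, and CCT-delta 2285, 2422 and 2619 in SR, against 4184, 4929 and 4559 in GFP females. The fall was 1.73-fold to 1.87-fold with no overlap, and limma gave Benjamini-Hochberg adjusted p-values of 6.24e-04 to 0.00300.

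The heat shock pair split. Hsp20, a small heat shock protein, had 9176, 5699.8 and 13022 normalized counts in SR, against 673, 164 and 210.4 in GFP females, 26.6-fold higher (limma, Benjamini-Hochberg adjusted p = 2.34e-05). Without GFP female replicate 1 the fold was 49.6. HSP70 had 74721, 99496 and 73090.4 in SR, against 65997, 82978 and 72109 in GFP females, with overlapping groups. Its log2 difference was 0.15 ± 0.24 (limma, Benjamini-Hochberg adjusted p = 0.560), the smallest among symbols, and its sign turned with the median set to 0 (-0.56), with TMM scaling from recovered reads (-0.35) and in edgeR (-0.35).

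Among the other symbols, CPI showed the greatest rise. CPI had 19282, 36071 and 32757 normalized counts in SR, against 13.8, 5.04 and 5.40 in GFP females. The log2 difference was 11.74 ± 2.17 (limma, Benjamini-Hochberg adjusted p = 5.77e-04), with a residual spread taken over all 12 libraries, while the flies within each of these groups lay close together. ODC had 3819, 2165 and 4108 in SR, against 74.1, 8.40 and 7.11 in GFP females. TPS had 27567, 55884 and 33594 in SR, against 2534, 119.6 and 80.2 in GFP females, and the water channel gene AQP 2202, 3099.8 and 2078 in SR, against 535, 249 and 174 in GFP females. GFP female replicate 1 was the highest female at all 4 of these genes.

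THY was lower in SR, at 2908, 2389 and 2858 normalized counts, against 7233, 8095 and 7874 in GFP females (limma, Benjamini-Hochberg adjusted p = 1.07e-04). Prohibitin, a mitochondrial inner membrane chaperone, had 3101, 3166 and 2542 in SR, against 3625, 4283 and 4106 in GFP females, and TCTP 20236, 26864 and 19414 in SR, against 23452, 37359 and 33873 in GFP females. Neither was called, with limma Benjamini-Hochberg adjusted p = 0.141 for prohibitin and 0.0844 for TCTP, but both passed as lower with the median set to 0 and in edgeR. Mda2 had 4.36, 3.62 and 109.6 in SR, against 345, 15.6 and 365 in GFP females, overlapped and was not called (limma, Benjamini-Hochberg adjusted p = 0.148). Achaete, chitinase, Gr2, Mda6 and MdRdl did not pass the filter on low values.

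**Figure D2:**
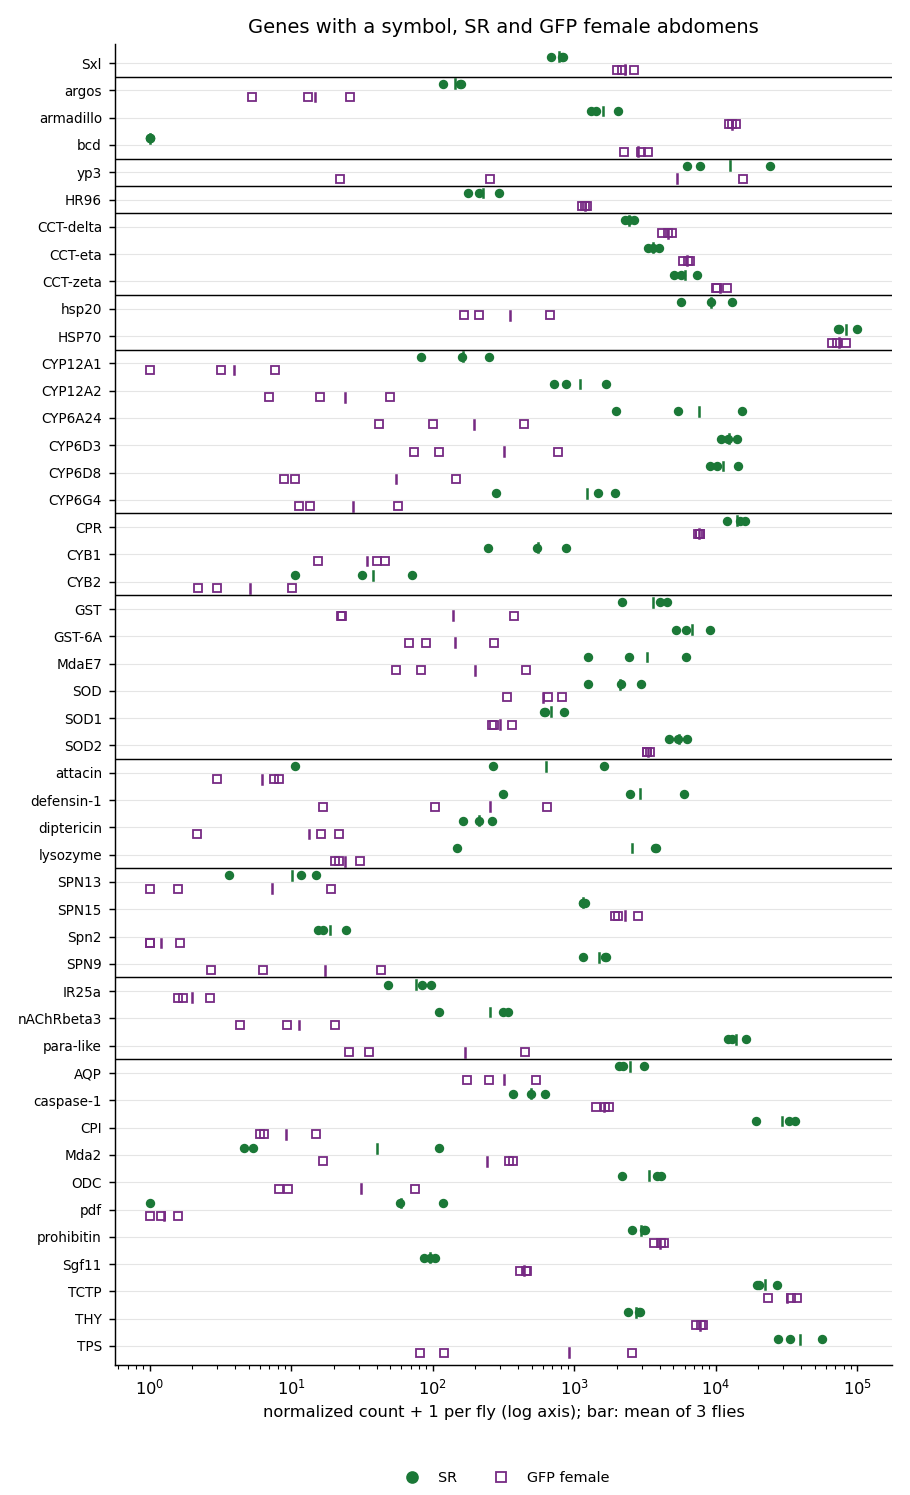
Normalized count + 1 per fly on a log axis for the 48 tested genes with a symbol, in list order with lines between lists; green discs are the 3 SR flies, purple squares the 3 GFP female flies and bars the group means. SR discs lie right of the squares for every CYP gene (CYP6D8 at 11265 against 53.7) and left of them for Sxl, armadillo, HR96 and the CCT genes, while HSP70 and yp3 overlap.

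The largest changes in each direction were at genes known by identifier. The 12 with the largest rise had log2 differences of 13.92 to 14.84, and all 12 were chosen for their size and for groups that do not overlap, so these values are a description. LOC101894025 on Muller element E had 596843, 580217 and 602624 normalized counts in SR, against 34.9, 4.80 and 38.95 in GFP females. The SR flies were nearly equal, and GFP males averaged 596337. LOC101890350 had 579945, 194872 and 911797 in SR, against 13.4, 18.3 and 21.9 in GFP females.

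LOC109612459 had 91855, 94145 and 282766 normalized counts in SR, against 8.67, 0 and 9.67 in GFP females. LOC109612143 had 227715, 31281 and 537708 in SR, against 3.72, 8.64 and 4.83 in GFP females. In both, SR replicate 3 was the highest SR fly. LOC101888455 had 168110, 245726 and 380952 in SR, against 16.7, 3.84 and 25.3 in GFP females. LOC101889706 on element D had 52788, 66478 and 72226 in SR, against 4.13, 0 and 2.56 in GFP females, and LOC105261599 on element E 74474, 69709 and 79214 in SR, against 5.78, 0.480 and 3.98 in GFP females. No female exceeded 39.0 normalized counts at any of the 12 genes. The other 5 were LOC101889368, LOC109612469, LOC101895510, LOC109614193 and LOC101890461, with SR means of 37974 to 170691, against GFP female means of 1.24 to 8.47. SR replicate 3 was the highest SR fly in 11 of the 12. Limma gave Benjamini-Hochberg adjusted p-values of 4.71e-07 to 7.48e-06.

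The 12 with the largest fall had log2 differences of -15.83 to -10.61. LOC101891006 on element A had 0, 1.21 and 0 normalized counts in SR, against 191343, 195135 and 11568 in GFP females. LOC101889373 on element D had 0, 0.604 and 0 in SR, against 284860, 53562 and 15522 in GFP females. GFP female replicate 3 was the lowest female at both genes. LOC101899429 on element B had no read in SR and 17916, 2394 and 1887 in GFP females, at least 2914-fold lower in SR against a floor of 3 reads per library.

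LOC101895154 on element D had 10.5, 4.83 and 8.51 normalized counts in SR, against 44136, 47911 and 41509 in GFP females, and here the females were even. LOC105262069 on element D had 5.23, 1.81 and 2.13 in SR, against 6113, 6268 and 6423 in GFP females. LOC101893155 on element C had 8.71, 6.04 and 11.7 in SR, against 15051, 22994 and 26787 in GFP females. At the other extreme, LOC109613477 on element D had 0.871, 0 and 1.06 in SR, against 33.6, 3086 and 138726 in GFP females, and LOC101889547 on element D had 0, 0 and 1.06 in SR, against 86.1, 12352 and 88194 in GFP females. At both of these genes GFP female replicate 1 was far below replicate 3. LOC101890831, LOC101887307, LOC101888541 and LOC101900378 complete the 12, with SR means of 0.604 to 4.26, against GFP female means of 4279.9 to 116356. Limma gave Benjamini-Hochberg adjusted p-values of 7.56e-08 to 0.00156. Where SR had 1 to 3 reads in all, the fitted difference depends on the pseudocount.

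**Figure D3:**
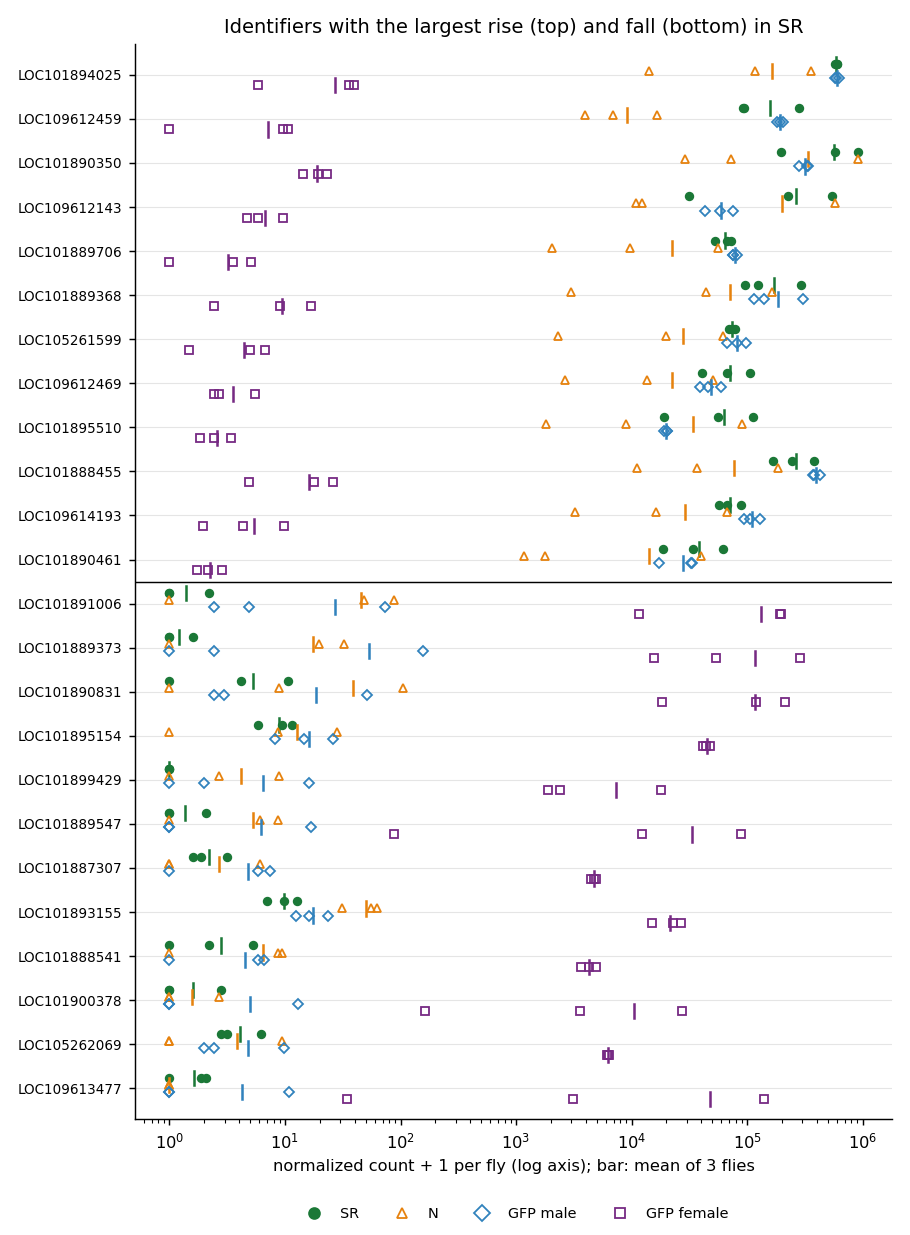
Normalized count + 1 per fly on a log axis for the 12 identifier genes with the largest rise (above the line) and the 12 with the largest fall (below it) in SR against GFP females; green discs are SR, orange triangles N, blue diamonds GFP males and purple squares GFP females, 3 flies each, and bars are group means. SR, N and GFP male flies lie on the same side of the GFP females in all 24 genes, and at LOC101894025 the N mean of 163233 is below the SR mean of 593228.

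The lower genes with the smallest p-values were even within both groups. LOC101897835 on element B had 2747, 2703 and 2920.2 normalized counts in SR, against 57103, 69938 and 64291 in GFP females, 22.9-fold lower (log2 difference -4.51 ± 0.13, limma, Benjamini-Hochberg adjusted p = 1.72e-08). LOC101887229 on element B had 457, 383 and 493 in SR, against 20560.2, 22284 and 22705 in GFP females. LOC101894830 on element D had 191, 252 and 278 in SR, against 30614, 31984 and 37546 in GFP females. LOC101887771 on element E had 427, 331 and 309 in SR, against 10277, 12129 and 11915 in GFP females. All 4 lay 22.9-fold to 139-fold lower in SR.

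Among higher genes the smallest p-values belonged to LOC109611999, LOC109614465, LOC101898845 and LOC101888773. LOC109611999 on element E had 11134, 6441 and 5833 normalized counts in SR and 3 reads in all 3 GFP females together. LOC109614465 on element C had 10290, 2275 and 6744 in SR and 1 read in the GFP females. LOC101888773 on element E had 11477, 2664 and 10822 in SR, against 0.206, 0.720 and 0 in GFP females. SR replicate 2 was the lowest SR fly at these last 2 genes and at LOC101898845. Limma gave Benjamini-Hochberg adjusted p-values of 7.56e-08 to 1.21e-07, and with so few female reads the fitted differences of 10.95 to 12.58 depend on the pseudocount.

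Normalized counts are not per length, so the next ranking is of counts and not of transcript levels. The called identifier genes with the highest SR means were LOC101894025, LOC101890350, LOC101900721 and LOC101897056. LOC101900721 on element D had 552620, 690589 and 237704 normalized counts in SR, against 21083, 4367 and 6317 in GFP females. LOC101897056 on element C had 651502, 43270.2 and 273046 in SR, against 2615, 358 and 1503 in GFP females, with SR replicate 2 far below the other SR flies. In GFP females the highest called were LOC101891006, LOC101889373, LOC101890831 and LOC101896501. LOC101896501 on element D had 27112, 20184 and 30375 in SR, against 63928, 72365 and 71143 in GFP females, 2.67-fold lower in SR.

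A class of genes stood out among the largest rises after the values had been seen. Of the 12 genes with the largest rise, 10 are annotated as long non-coding RNA (lncRNA) in a later RefSeq annotation and 2 did not match it, whereas 11 of the 12 largest falls are annotated as protein coding. The biotypes may differ from those of the annotation the authors counted with. Of 315 tested genes in the lncRNA class, 218 (69.2%) were higher and 25 (7.94%) lower in SR, with a median log2 difference of 3.39. Protein coding genes numbered 10705, with 41.9% higher and 35.2% lower and a median of 0.39. The 1463 genes that did not match the annotation lay between, with 50.8% higher and 20.8% lower.

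Among the 70 genes higher by 1024-fold or more, 21 (30%) were of the lncRNA class, which makes up 2.51% of tested genes. These 21 include the 10 lncRNA genes among the 12 largest rises that drew attention to the class. At smaller cut-offs the lncRNA share was lower. It was 4.21% at 2-fold or more, 4.58% at 4-fold, 3.70% at 16-fold and 8.49% at 256-fold. Over all alternatives the number of lncRNA genes called higher lay between 158 (of 192, with the filter at 50 normalized counts) and 248. With the median set to 0 it was 191 of 315. No test of the class was made, since it was chosen after the values were seen.

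Position on chromosome arms was described through Muller elements, the arms conserved among flies. Elements A to E had similar shares, from 38.5% (D) to 43.5% (B) called higher and from 33.7% (B) to 36.5% (E) called lower. On element A, which carries the male determiner in this strain, 766 of 1871 genes (40.9%) were higher and 682 (36.5%) lower in SR, against 43.7% and 32.8% of all tested genes. The small element F had 12 of 34 genes (35.3%) higher and 17 (50%) lower. Genes with no element stood apart, with 1167 of 2122 (55.0%) higher and 392 (18.5%) lower in SR and a median log2 difference of 2.62.

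Gene class and position were also split against each other. Protein coding genes with no element were higher at 740 of 1312 (56.4%), against 3749 of 9393 (39.9%) of those with one. LncRNA genes were higher at 81 of 119 (68.1%) with no element and at 137 of 196 (69.9%) with one. Of the 70 genes higher by 1024-fold or more, 48.6% had no element, against 16.9% of all tested genes.

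**Figure D4:**
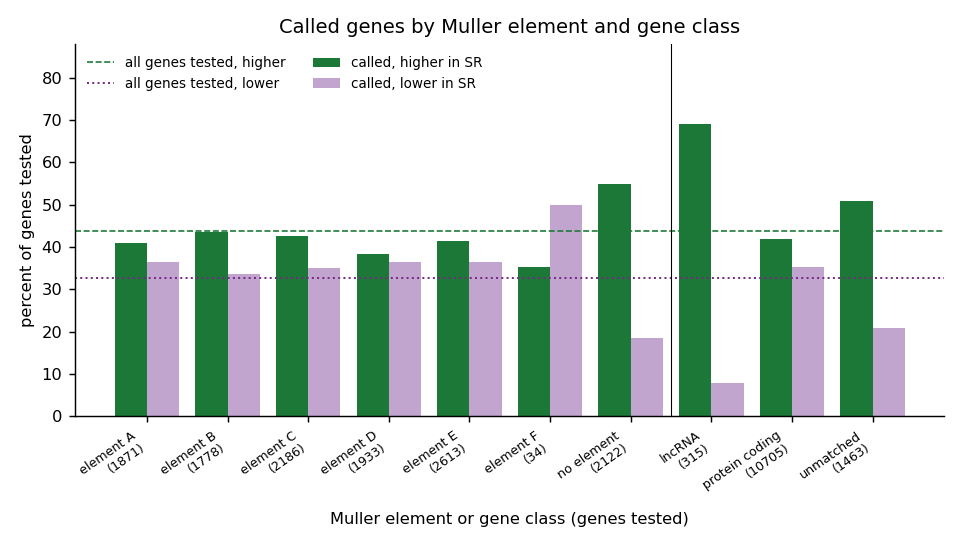
Percent of tested genes called higher (green) and lower (purple) in SR against GFP female abdomens, by Muller element (left of the vertical line) and by gene class (right of it), with the number of tested genes in parentheses. Dashed and dotted lines give the shares over all tested genes, 43.7% higher and 32.8% lower; the lncRNA class reaches 69.2% higher and genes with no element 55.0%.

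Genes read in just 1 of the groups were unevenly divided. No read in any SR fly and a mean of at least 50 normalized counts in GFP females was found at 6 genes, bcd, LOC101899429, LOC105262105, LOC101898726, LOC105261982 and LOC101888445, a set listed after its values were seen. Means in GFP females ran from 50.5 for LOC101888445 to 7399 for LOC101899429. LOC105262105 had 81.5, 1.44 and 15632 in the 3 GFP females, so its mean rests on replicate 3. The reverse, no read in any GFP female and an SR mean of at least 50, was found at 158 genes. LOC109612146 headed these with 2782, 0 and 9449 normalized counts in SR, and LOC101891631 on element A, picked after its values were seen, had 1784, 397 and 1610. GFP female libraries were the deeper ones. The filter counted libraries of all abdomen groups together. A gene read in phenotypic males alone could pass it through SR, N or GFP male libraries. A gene read in females alone had to reach the filter value in all 3 GFP females. The part of the filter in the uneven division was not tested.

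The reads of an abdomen were concentrated on fewer genes in SR than in GFP females. The most abundant genes that together hold 50% of a library's reads numbered 162, 225 and 154 in SR, against 604, 602 and 667 in GFP females. They numbered 124, 188 and 148 in GFP males and 247, 151 and 236 in N, so low numbers were not particular to SR. The top 10 genes held 15.9%, 12.5% and 15.7% of reads in SR, against 7.59%, 7.19% and 6.12% in GFP females. SR libraries nonetheless had reads at more genes, 14095, 14337 and 14139, against 13591, 12671 and 12683 in GFP females, at lower depth.

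Genes called higher took 76.5% ± 2.05 (SD, n = 3) of reads in SR and 21.1% ± 2.38 in GFP females. Genes called lower took 9.32% ± 0.553 in SR and 58.6% ± 2.54 in GFP females. These sets were chosen by the same values, so the shares are a description. The 12 genes with the largest rise alone took 9.36% ± 3.39 of SR reads and 0.00059% of GFP female reads, and the 12 with the largest fall took 0.000114% of SR reads and 3.39% ± 1.13 of GFP female reads. The lncRNA class took 11.1% ± 3.07 in SR (8.23% to 14.4%), 5.67% ± 5.34 in N, 9.75% ± 0.850 in GFP males and 0.531% ± 0.0573 in GFP females. Every SR fly was far above every GFP female in this share. Of the 12 genes with the largest rise, 10 belong to this class. Most SR reads of the class lie at these 10 genes, which were chosen by the same values. The 95% Wilson interval of any such share in a single library extended at most 0.0526 percentage points to either side, which covers counting error only.

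**Figure D5:**
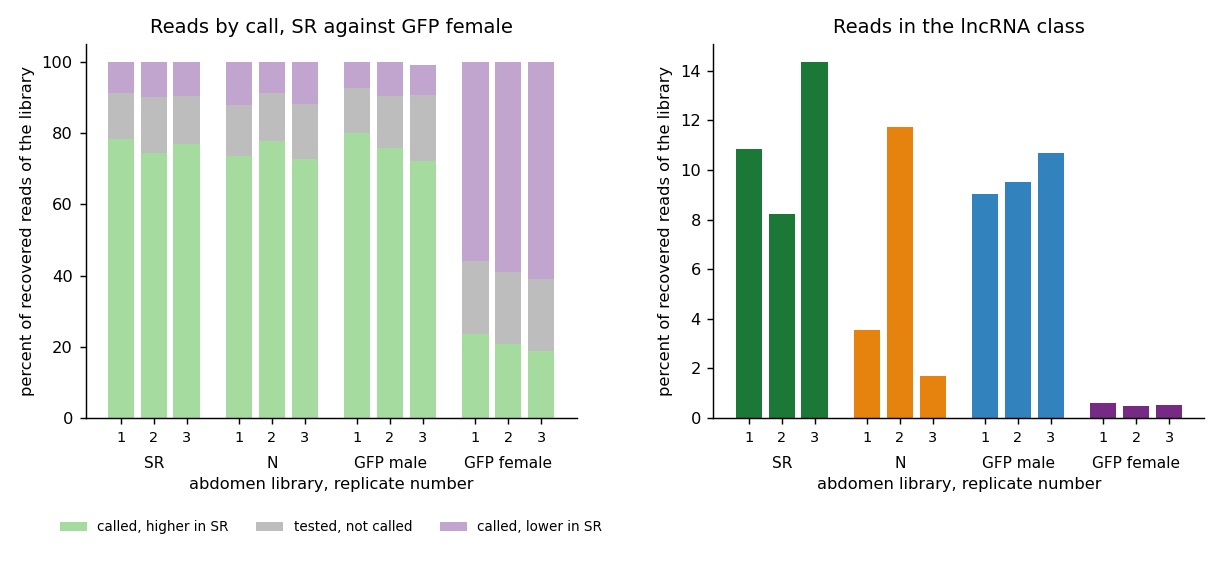
Left, percent of recovered reads of each abdomen library (replicates 1 to 3 of SR, N, GFP males and GFP females) at genes called higher (green), not called (grey) and called lower (purple) in SR against GFP females; right, percent at the 315 genes of the lncRNA class. Genes called higher hold 76.5% on average in SR and 21.1% in GFP females, and the lncRNA class holds 8.23% to 14.4% in SR against 0.531% on average in GFP females.

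Flies of a group were less alike at genes that were higher in SR. The median standard deviation of log2 values over called higher genes was 0.70 in SR and 0.65 in GFP females, against 0.29 in SR and 0.19 in GFP females over called lower genes. Over all tested genes it was 0.46 in SR and 0.28 in GFP females, and over genes not called 0.47 and 0.25. GFP female replicate 1 stood on the SR side of the other females at most called genes, a pattern seen after the values were known. It was the highest of the 3 females at 4044 of 5474 called higher genes (73.9%), including 26 of 31 symbols, and the lowest at 2977 of 4111 called lower genes (72.4%). Without it 9259 genes were called, against 9585 with it. Among SR flies, replicate 2 was the lowest at 43.8% of called higher genes and replicate 3 the highest at 43.2%.

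The other groups were set beside SR, with comparisons that share libraries. SR against GFP males called 20 of 12537 genes (0.16%), and N against GFP females 9562 (76.3%), in the same limma fit. Of the 48 symbols none was called between SR and GFP males (limma, adjusted by Benjamini-Hochberg), 5 had an unadjusted p under 0.05, and of the 35 named identifiers none was called and 1 had an unadjusted p under 0.05. Over all 12537 genes 815 had an unadjusted p under 0.05. For CYP6D8 the means were 11265 in SR, 1528 in N and 4922 in GFP males, against 53.7 in GFP females. CYP6D3 means were 12327 in SR, 16768 in N and 27609 in GFP males, against 317 in GFP females. A p that misses the threshold does not show that SR and GFP male abdomens were alike.

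SR against N called 1832 genes (14.6%), among them 6 symbols and 6 of the named identifiers. The symbols were CPR, CYB1, IR25a, prohibitin, SPN15 and THY. THY, lower in SR, averaged 2719 in SR, 7374 in N and 7734 in GFP females. SR exceeded N at LOC109612459 by a log2 difference of 4.13 (limma, Benjamini-Hochberg adjusted p = 0.0152) and at LOC109611999 by 3.61. SR stood below N with a log2 difference of -1.73 at LOC109614465, -2.07 at LOC101898845, -2.33 at LOC101893155 and -2.43 at LOC101888773. N libraries had 2689265 to 16113838 reads, the fewest of any abdomen group, and the part of depth in these values was not tested.

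In heads of the same 4 groups, SR against GFP females called 20 of 12237 genes (0.163%) by limma, and 1966 (16.1%) had an unadjusted p under 0.05. Of the 83 genes named by rule, 70 were kept in the head table and none was called, with 12 symbols and 5 identifiers at an unadjusted p under 0.05. CPR had 9401, 6682 and 7799.6 normalized counts in SR heads, against 11201, 12441 and 14898 in GFP female heads, so that every SR head lay below every female head. CYP6G4 had 24233, 13899.9 and 12974 in SR heads, against 31676, 49102 and 51249 in GFP female heads (log2 difference -1.40, limma, Benjamini-Hochberg adjusted p = 0.0697). LOC101894025 had 3.76, 3.24 and 14.3 in SR heads, against 58.1, 169 and 41.7 in GFP female heads. Of the 31 symbols higher in SR abdomens, 21 stood below 0 in heads, without a call. Of all 47 symbols kept in heads 32 did, as did 52.7% of the 11178 genes tested in both tissues. Tables of the tissues were scaled separately, so levels were not set across them, and the difference between tissues was not tested.

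In the authors' deposited table, the comparison headed sex-reversed male against female was made from the SR columns. Its log2 values differed from the log2 ratio of SR to GFP female means by a median of 0.00124 over 9183 genes, and from the ratio of N to GFP female means by 0.576. The authors' deposited table calls 11005 of 14686 genes (74.9%) at an adjusted p under 0.05, with 6650 higher and 4355 lower. Of the 9585 genes called here, 9429 are called in the same direction in the authors' deposited table. The authors' deposited table calls 41 of the 48 symbols, in either direction.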

How the data were processed

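Poly(A) RNA of single-fly abdomens and heads was sequenced from stranded mRNA libraries made with 1.5 µg of RNA (1.2 µg for 1 GFP female head), per the labels' protocols. Tools listed in the submitters' processing notes are DESeq2 1.16.1, HTSeq 0.9.1, HISAT2 and CASAVA 1.8, with no step assigned to any. Not given in the sources used here are the genome build, the annotation release and the strand setting of the counting. The abdomen and head tables that the authors deposited hold a signal that the headers name normalized counts, in which all genes of a library share the same divisor. Values above 0 came out as whole reads in 100% of cases (tolerance 0.001) once that divisor was removed. The deposited log2 fold changes and adjusted p-values of the authors' own comparison were used only in sentences that name them.

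Genes with at least 10 in 3 of 12 libraries were fitted as log2(normalized count + 1) with limma 3.58.1 (R 4.3.3), a trended prior and all 12 abdomen libraries, without a block. Tests were two-sided, with Benjamini-Hochberg adjustment over all genes kept and a threshold of 0.05. Fold changes on this scale understate those of genes with few counts. Heads were fitted apart in the same way. The count tests edgeR 4.0.16 and DESeq2 1.42.0 were run on recovered reads as alternatives and called 10135 and 10277 genes. The labels call the flies biological replicates and give no batch. The script was tested on simulated data with few changed genes and a common spread, which does not show how it performs on these data.

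Genes named are those with a symbol. By identifier they are the 12 per direction with the largest log2 difference, among called genes whose higher group averaged 50 or more and whose groups did not overlap, the 4 per direction with the smallest p, and the 4 called genes with the highest mean in SR and in GFP females. The members and lists were chosen with earlier results of these data known. A reference gene table (assembly Musca_domestica.polishedcontigs.V.1.1) matched 13644 of 16540 identifiers and gave the biotypes, with no coordinates or functions used. No protein or promoter sequence was used here, so the planned grouping by protein likeness was not run. Near-identical genes (P450, serpin and yolk protein relatives) and overlapping or antisense genes can share reads in ways the table does not resolve. Floors are 3 reads per library and, like the intervals, cover counting error alone, since PCR copies were not marked.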

Additional observations from a re-analysis of the deposited data

Results flagged for a closer look

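At 16 named genes called higher in SR abdomens, every SR fly lay above every GFP female in the abdomen and every SR head lay below every GFP female head. Of the 5310 genes called higher with no overlap in abdomens, 492 (9.27%) had every SR head below every GFP female head. So had 943 of the 12237 genes tested in heads (7.71%). The first set was chosen in abdomens and the second by the filter in heads, so these shares are of unlike sets. The head values of the groups did not overlap at 16.1% of the genes tested there. The difference between the tissues was not tested, and the tissues were scaled separately. LOC101895510 and LOC101890461 did not pass the filter in heads and were not tested there, and limma called none of the others in heads. The log2 difference of SR from GFP female abdomens was 0.89 for CPR, 4.00 for CYB1, 5.50 for CYP6G4, 4.38 for MdaE7 and 7.35 for SPN9. In heads the log2 difference was -0.69 for CPR, -1.53 for CYB1, -1.40 for CYP6G4, -0.98 for MdaE7 and -0.70 for SPN9.

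Among identifiers the abdomen log2 difference was 14.84 for LOC101894025, 14.81 for LOC109612459, 14.63 for LOC101890350, 14.55 for LOC101889706 and 14.30 for LOC105261599. It was 14.28 for LOC109612469, 14.28 for LOC101895510, 14.22 for LOC101888455, 13.97 for LOC109614193, 13.92 for LOC101890461 and 5.75 for LOC101900721. In heads LOC101888455 had 4.70, 0.649 and 3.56 normalized counts in SR, against 39.2, 70.7 and 22.2 in GFP females, and LOC101900721 had 131329, 148280 and 92510.1 in SR, against 207702, 326480 and 308412 in GFP females. LOC101890350 had 2.82, 3.89 and 14.3 in SR heads, against 54.02, 61.4 and 39.8 in GFP female heads. No SR head had more than 3 reads at LOC109612459, LOC101889706, LOC105261599, LOC109612469, LOC101895510, LOC109614193 or LOC101890461. The order of heads at these genes thus rests on few reads on the SR side. At LOC101895510 the highest SR head, at 1.78 normalized counts, lay just below the lowest GFP female head, at 1.85.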

How the results depend on the processing

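The number of genes called in SR against GFP female abdomens stayed within 1.5 times of 9585 under every alternative run, from 8634 with the filter at 50 normalized counts to 10477 with array weights. Without 1 of the 6 flies it lay between 8689 and 9259. The replicate block gave 9632, and under it pdf was called (limma, Benjamini-Hochberg adjusted p = 0.0324). Deviations of SR and GFP female flies with the same replicate number correlated at -0.022, -0.0499 and 0.0804. The numbers in the column names start differently in the groups, so they do not match the replicate numbers. With equal column numbers the correlations were 0.103 (SR replicate 2, GFP female replicate 1) and 0.0321 (SR replicate 3, GFP female replicate 2). Whether any flies were paired was not settled. TMM scaling from recovered reads (9864 called, median log2 difference 0.20) and the class counts were added after seeing the data. The median was 0.56 with TMM on the deposited values, 0.18 in edgeR and 0.18 with the filter at 50. Directions turned at HSP70, to -0.35 with TMM scaling from recovered reads, -0.56 with the median set to 0 and -0.35 in edgeR, and at SOD2, to -0.0074 with the median set to 0, as follows from moving all genes by 1 amount. Of the 83 named genes, no identifier changed its call in any alternative that gave it a value, and CPI and LOC101891006 had none in DESeq2 and Spn2 and LOC109613477 none with the filter at 50. Calls were lost under at least 1 alternative at attacin, defensin-1, yp3, CPR, SOD, SOD1 and SOD2 and gained at pdf, prohibitin, SPN13 and TCTP, and the cause was not tested beyond the scaling. Symbols called higher numbered 25 with the median set to 0 and 32 with array weights. The grouping by protein likeness was not run. Depth limits the SR side more: 3 reads equal 1.81 to 3.19 normalized counts in SR and 0.619 to 0.853 in GFP females.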
